A study of Mus musculus with 12 samples.

Results

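The 10 genes described here make and read out 2 signals known from islets of pregnancy, and they were taken from the islet count table by name. Prlr and Ghr encode the receptors of prolactin and growth hormone, and Cish and Socs2 encode inhibitors that these receptors switch on. Tph1, Tph2, Ddc, Slc18a1, Slc18a2 and Maob encode the proteins that make, store and break down serotonin. Each name matched 1 row of the 37991 genes in the table, and all 10 had enough reads to enter the test with 15961 genes in all.

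Lactogenic hormones (prolactin, placental lactogen and growth hormone) bind their receptors on β-cells, the kinase JAK2 then phosphorylates STAT5, and STAT5 dimers enter the nucleus and turn on target genes. CISH and SOCS2 are such targets and dampen the same receptors, so their mRNA is often read as a trace of STAT5 activity. In pregnancy this pathway strongly induces Tph1 in rodent β-cells, and the serotonin made there is stored in granules and acts back on islet cells through its receptors. Non-pregnant male islets, as used here, normally make little Tph1.

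RNA was sequenced from whole islets of male C57BL/6 mice, and the Tg7 line was kept by crosses to C57BL/6J females. Tg7 mice overexpress miR-7a2 in β-cells, and Wt mice were their wild-type littermates. Both genotypes were sampled at 2 weeks (2w), when Tg7 mice are normoglycaemic, and at 12 weeks (12w), when they are hyperglycaemic. The 4 groups were of 3 libraries, every one a pool of islets from at least 3 animals, so p values measure the spread between pools and not between mice. Whole islets hold several cell types, and fewer β-cells cannot be told apart from less RNA per β-cell in any value below.

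The libraries held between 11610697 and 17515758 counted reads. As a check of the labels, the β-cell factor Mafa fell by 4.78 on the log2 scale at 2w and fell by 5.02 at 12w in Tg7 islets (edgeR adjusted p = 1.02e-05 and 2.41e-06). Of 8 β-cell markers, 7 fell at 2w and 6 at 12w. Their summed level, in CPM (counts scaled to library size), was 109529 to 178846 in Wt and 27281 to 52275 in Tg7 islets at 2w, and 195701 to 479400 against 100026 to 105367 at 12w. None of 5 α-cell markers was called at either age. Of 7 stellate and fibroblast markers, 5 rose at 2w and 7 at 12w, and 4 of 5 endothelial markers rose at 12w. The summed stellate level was 225 to 326 CPM in Wt and 412 to 548 CPM in Tg7 islets at 2w, and 36.6 to 44.2 against 262 to 294 CPM at 12w. For mast cells, another source of serotonin, Mcpt4, Cma1, Tpsb2 and Fcer1a had 0 counts in all 12 libraries and Cpa3 and Ms4a2 had 2 and 1 in all. Kit and Hdc, the 2 genes of this list of 8 that were tested, rose at both ages, and the summed level of the list was 22.9 to 29.8 CPM in Wt and 49.4 to 63.2 CPM in Tg7 islets at 2w and 8.44 to 12.9 against 28.6 to 33.9 CPM at 12w. Platelets also store serotonin, and the summed level of 5 platelet and megakaryocyte markers was 9.20 to 11.7 CPM in Wt and 16.0 to 19.4 CPM in Tg7 islets at 2w, and 7.93 to 13.2 against 30.9 to 33.1 CPM at 12w. Of the 2 tested, 1 rose at each age. In all 12 libraries together Gp1bb had 2722 counts, Itga2b 687, Pf4 53, Ppbp 39 and Gp9 9, so this sum is mostly that of Gp1bb and not of the whole list. At 12w 2 of 5 tested ductal, 1 of 3 tested neuron, 1 of 4 Schwann and the only tested adipocyte marker also rose, and 1 of 4 macrophage markers fell. At 2w 1 of 3 tested neuron markers fell. Of the PP and epsilon, acinar and macrophage lists, 1 marker each rose at that age. The part of these shifts in the results below was not tested. Among 2w Tg7 libraries, replicate 1 had a high summed macrophage level (91.9 CPM against 47.2 and 43.0 CPM in replicates 2 and 3). Its summed level of 4 lymphocyte markers was also high (38.5 CPM against 4.87 and 6.61 CPM), and neither of the 2 tested was called at either age. Among 12w Wt libraries, replicate 1 had a low Mafa level (45.4 CPM against 170 CPM in the highest) and replicate 4 a low share of insulin reads (14.8% against 30.0% and 27.0%). Without replicate 1 the count of the 10 genes called at 12w was 5, as with all libraries, and without replicate 4 it was 4.

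miR-7a2 yields the mature miRNA miR-7a-5p, shown because it is the product of the transgene that the labels name. The miRNA itself was not measured in these libraries. The row of the precursor locus Mir7-2 held 27 reads in 2w Wt, 14 in 2w Tg7, 17 in 12w Wt and 11 in 12w Tg7 libraries, and it does not check the transgene. Capitals mark the seed, bases 2 to 8, and the sequence is from RefSeq on GRCm38.p6 (chr7:78888295-78888317, plus strand).
miR-7a-5p: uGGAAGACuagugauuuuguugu
A match to this seed (GTCTTCC on the sense strand) was looked for in the longest annotated 3′ UTR of each gene. Only Socs2 held it among the 10 genes, once, against 11.2% of 20007 genes with an annotated 3′ UTR. The site lies on NCBIM37 at chr10:94849520-94849546 on the minus strand, with the match in capitals, and the match is a description of letters and not of binding.
Socs2 site: tggggggtggggtggGTCTTCCccact
STAT5 dimers bind the palindrome TTCNNNGAA. In RefSeq promoter windows around each gene's start (GRCm38.p6), 8.30% of 32851 windows held this motif and 0.457% held it at least 2 times. It was searched as written, since it reads the same on both strands. Windows were given for 7 of the 10 genes (12 windows), and Socs2, Maob and Slc18a1 had none. Cish held the motif 2 times, beginning 0 and 11 bases after the annotated start, and 1 of the Prlr windows held it 110 bases before the start. They are shown with the motifs in capitals because Cish, a classical STAT5 target, and Prlr moved in opposite directions below.
Cish window: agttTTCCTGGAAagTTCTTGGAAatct
Prlr window: gcaaaatgagTTCTAGGAAtaagggatat

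Between Tg7 and Wt islets, 4 of the 10 genes were called at 2w and 5 at 12w, where 10.6% and 23.6% of all genes tested were called. At 2w 1 rose and 3 fell, where 6.07% of all genes tested rose and 4.55% fell. At 12w 1 rose and 4 fell, where 12.5% rose and 11.2% fell. Cish rose and Prlr, Maob and Ddc fell at both ages, and Slc18a1 fell at 12w. The median log2 fold change of the 10 genes was −0.48 at 2w and −0.19 at 12w, beside 0.03 and −0.01 over all genes tested. The libraries of both genotypes did not overlap for 6 of the 10 genes at either age, beside 35.9% and 37.1% of all genes tested.

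**Figure D1:**
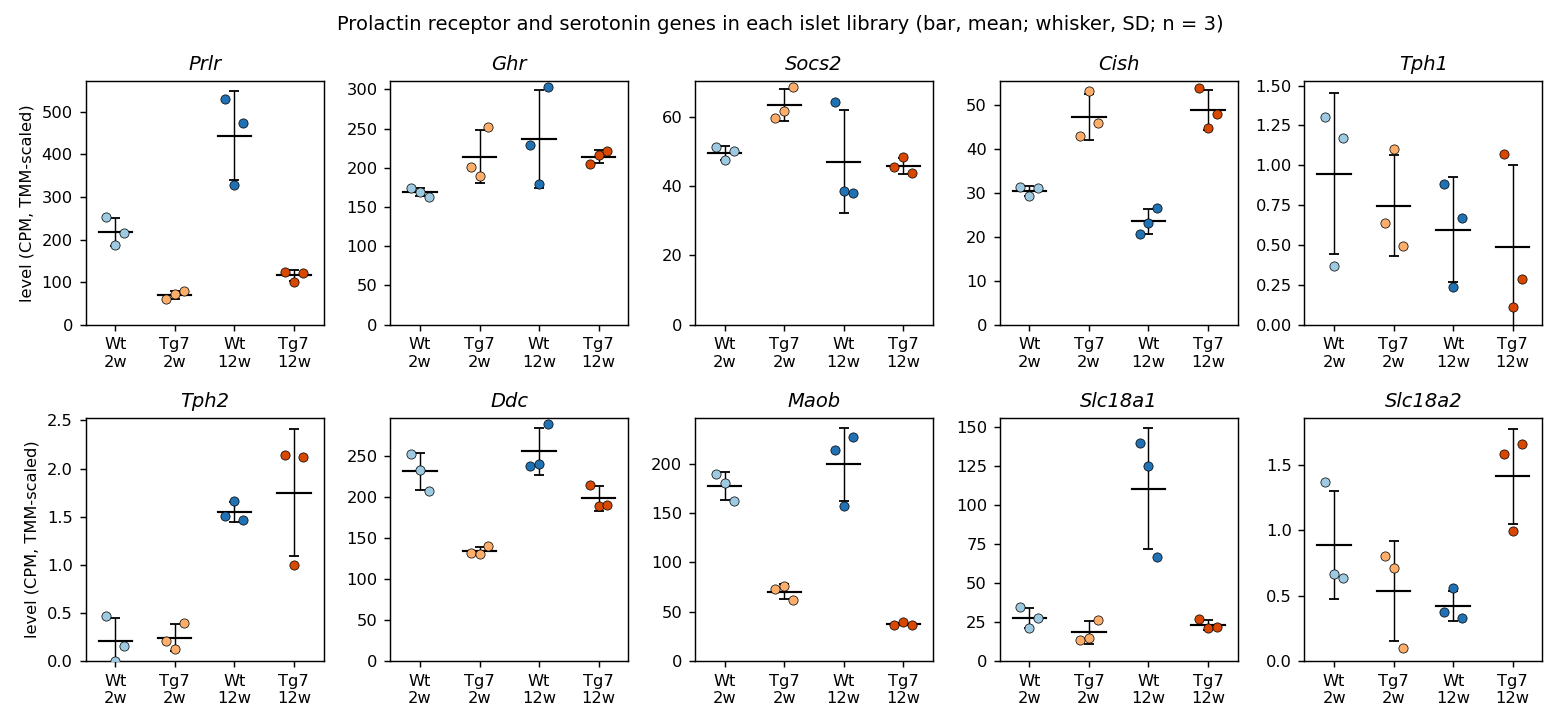
Level of each gene in each of the 12 libraries, in CPM after TMM scaling, on linear axes from 0. Dots are libraries (Wt blue, Tg7 orange, 12w darker), bars are means of 3 and whiskers are SD. Prlr and Maob lie lower and Cish higher in every Tg7 library than in every Wt library of the same age, while Tph1, Tph2 and Slc18a2 stay below 2.5 CPM.

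Prlr (prolactin receptor, NCBIM37 chr15:10106993-10303504, plus strand) fell in Tg7 islets at both ages. Its level was 252, 187 and 216 CPM in the 2w Wt libraries and 59.8, 72.2 and 78.8 CPM in the 2w Tg7 libraries. At 12w the values were 530, 327 and 473 CPM in Wt and 125, 100 and 122 CPM in Tg7. Every Tg7 library lay below every Wt library, including those of the other age. The log2 fold change was −1.64 ± 0.18 (SE) at 2w (3.11-fold lower, adjusted p = 0.00011) and −1.94 ± 0.19 at 12w (3.83-fold lower, adjusted p = 8.91e-06). Both calls held under all 8 other settings and with each library left out. The difference between ages, −0.30 ± 0.25, was not called (adjusted p = 0.649, 95% interval −0.89 to 0.29). Prlr also belongs to the epithelial genes that the study took from the UniProt database and to a shorter list picked from them on these libraries, so its direction is not independent evidence for that shorter list. It shares 155 of its 15494 exon bases with Agxt2.

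Ghr, the growth hormone receptor, is closely related to PRLR and works through the same JAK2 and STAT5. Its level was 175, 169 and 163 CPM in 2w Wt and 201, 189 and 253 CPM in 2w Tg7 libraries, without overlap. At 12w it was 229, 180 and 304 CPM in Wt and 205, 216 and 222 CPM in Tg7, all within the Wt range. Neither difference was called (0.34 ± 0.17, adjusted p = 0.207, 95% interval −0.04 to 0.73; −0.15 ± 0.17, adjusted p = 0.586, −0.53 to 0.24). Within each library the ratio of Prlr to Ghr counts, which no scaling factor enters, averaged 1.29 ± 0.17 (SD, n = 3) in Wt and 0.330 ± 0.045 in Tg7 at 2w. At 12w it averaged 1.90 ± 0.38 in Wt and 0.541 ± 0.074 in Tg7. The highest Tg7 ratio, 0.609, was below the lowest Wt ratio, 1.10, so the balance between the receptor mRNAs stood lower on the Prlr side in every Tg7 library.

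Cish, the first of the receptors' feedback inhibitors, rose where Prlr fell. Its level was 31.3, 29.2 and 31.0 CPM in 2w Wt and 43.0, 53.0 and 45.7 CPM in 2w Tg7 libraries. At 12w it was 20.7, 23.2 and 26.5 CPM in Wt and 53.7, 44.7 and 47.9 CPM in Tg7. The genotypes did not overlap at either age, and the 12w Wt libraries were the lowest of all. The log2 fold change was 0.63 ± 0.13 at 2w (1.55-fold, adjusted p = 0.00787) and 1.05 ± 0.13 at 12w (2.07-fold, adjusted p = 9.32e-05), called under all 8 other settings and with each library left out. There were 0.141 ± 0.016 (SD, n = 3) Cish counts per Prlr count in 2w Wt and 0.678 ± 0.084 in 2w Tg7 libraries. At 12w the ratio was 0.0553 ± 0.016 in Wt and 0.423 ± 0.029 in Tg7. The antisense transcripts Gm17040 and Gm17041 share 261 and 479 exon bases with Cish. Gm17040 had 0 counts in all 12w Wt libraries and 13, 11 and 20 in 12w Tg7 libraries. In the same Tg7 libraries Gm17041 had 0, 5 and 0 counts and Cish 952, 808 and 837. No source used here says whether counting used strand, so in the shared bases reads of Cish and of these transcripts cannot be told apart.

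Socs2, the second inhibitor and a main brake on growth hormone signalling, was not called at either age. It had 51.4, 47.4 and 50.1 CPM in 2w Wt and 59.8, 61.7 and 68.5 CPM in 2w Tg7 libraries, which did not overlap. At 12w the values were 64.3, 38.7 and 38.1 CPM in Wt and 45.4, 48.4 and 43.9 CPM in Tg7, with the Tg7 libraries between the Wt ones. The log2 fold changes were 0.35 ± 0.17 (adjusted p = 0.199) and −0.03 ± 0.17 (adjusted p = 0.931, 95% interval −0.42 to 0.37). The value at 2w was called under 3 of 8 other settings and without 12w Wt replicate 1 (adjusted p = 0.0349), and the sign at 12w turned with library size alone to 0.45, which passed (adjusted p = 0.0345). Socs2 is the only one of the 10 genes with the miR-7 seed match shown above.

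**Figure D2:**
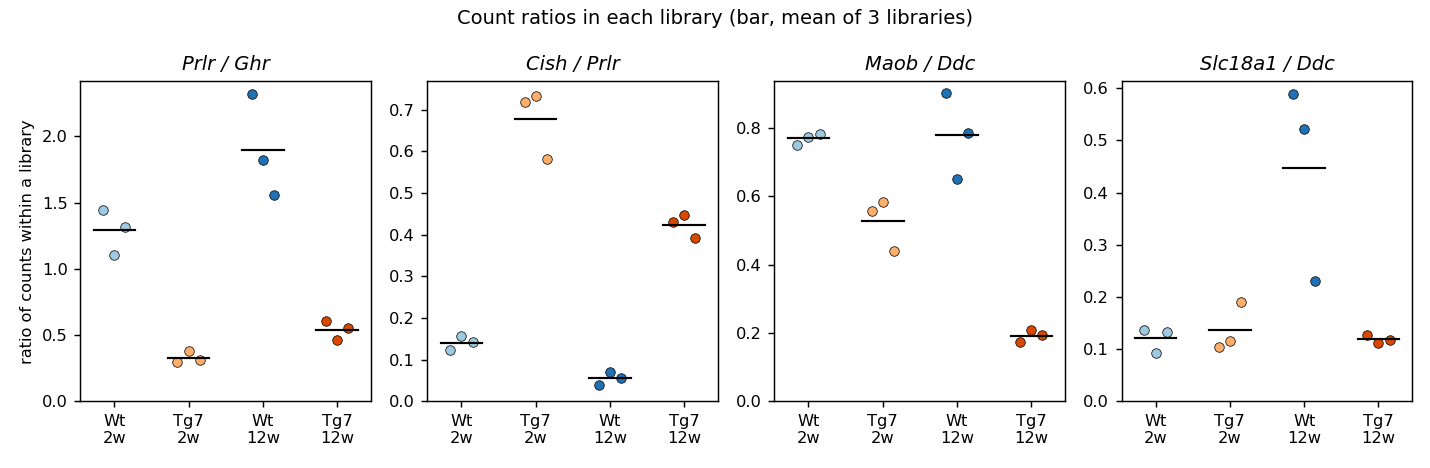
Ratio of counts of 2 genes within each library, on linear axes from 0, with dots for libraries and bars for means of 3. In each genotype pair Prlr over Ghr is lower and Cish over Prlr higher in all Tg7 libraries, Maob over Ddc is lowest in 12w Tg7, and Slc18a1 over Ddc is highest in 12w Wt (mean 0.447).

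Tph1 encodes the tryptophan hydroxylase of peripheral tissues, which catalyses the rate-limiting step of serotonin synthesis. Its counts were 22, 5 and 22 in 2w Wt, 12, 17 and 10 in 2w Tg7, 7, 3 and 10 in 12w Wt, and 19, 2 and 5 in 12w Tg7 libraries. All 4 groups overlapped, and no comparison was called. The log2 fold change was −0.37 ± 0.73 at 2w (95% interval −2.07 to 1.32) and −0.24 ± 0.81 at 12w (−2.12 to 1.63), so a change of 2-fold in either direction was not detectable at this depth. Tph1 thus had 2 to 22 counts per library over both genotypes, with no difference detectable at this depth. Whether Tph1 followed the fall of Prlr was not tested.

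Tph2, the tryptophan hydroxylase of neurons, had 8, 0 and 3 counts in 2w Wt, 4, 2 and 8 in 2w Tg7, 12, 21 and 22 in 12w Wt, and 38, 18 and 37 in 12w Tg7 libraries. The genotypes overlapped at both ages, and all 12w libraries had more counts than all 2w libraries. Tg7 and Wt did not differ by a called amount (0.20 ± 0.81, adjusted p = 0.905; 0.18 ± 0.62, adjusted p = 0.877).

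Ddc, the aromatic amino acid decarboxylase that turns 5-hydroxytryptophan into serotonin and also makes dopamine, fell in 2w Tg7 islets. Its level was 252, 233 and 207 CPM in 2w Wt and 132, 131 and 140 CPM in 2w Tg7 libraries. At 12w it was 237, 240 and 288 CPM in Wt and 215, 189 and 190 CPM in Tg7. All Tg7 libraries lay below all Wt libraries of their age, with a wider gap at 2w. It fell by 0.78 ± 0.12 on the log2 scale at 2w (1.72-fold lower, adjusted p = 0.00113) in every setting. At 12w it fell by 0.37 ± 0.12 (1.29-fold lower, adjusted p = 0.0412), a call lost under 6 of 8 other settings. That call held without 2w Wt replicate 1, 12w Wt replicate 1 or 12w Wt replicate 2 and was lost without any of the 9 other libraries, with adjusted p between 0.0534 and 0.15. With library size alone, 1 of those 6 settings, the sign turned to 0.067 (adjusted p = 0.765).

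Slc18a1 and Slc18a2 encode the vesicular monoamine transporters VMAT1 and VMAT2, which load serotonin and other amines into granules. Slc18a1 was 34.6, 21.6 and 27.6 CPM in 2w Wt and 13.7, 15.3 and 26.7 CPM in 2w Tg7 libraries, which overlapped. At 12w it was 140, 125 and 66.7 CPM in Wt and 27.3, 21.2 and 22.3 CPM in Tg7, with every Tg7 library below the lowest Wt library. The change at 2w was not called (−0.59 ± 0.29, adjusted p = 0.207). The fall at 12w was 2.22 ± 0.29 on the log2 scale (4.67-fold lower, adjusted p = 0.000119) and was called in every setting. The lowest 12w Wt value belongs to replicate 4, the library with the low insulin share.

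Slc18a2 had 23, 9 and 12 counts in 2w Wt, 15, 11 and 2 in 2w Tg7, 3, 7 and 5 in 12w Wt and 28, 18 and 29 in 12w Tg7 libraries. At 12w the genotypes did not overlap, with the Tg7 libraries higher, the opposite side from Slc18a1. This difference was not called (1.72 ± 0.67, 3.29-fold, adjusted p = 0.0802, 95% interval 0.17 to 3.27), but passed with library size alone (adjusted p = 0.0214) and without 2w Tg7 replicate 3 (adjusted p = 0.0341). At 2w the value was −0.74 ± 0.64 (adjusted p = 0.503).

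Maob encodes monoamine oxidase B, a mitochondrial enzyme that degrades amines, and it gave the largest called change of the 10 genes at 12w. Its level was 190, 181 and 162 CPM in 2w Wt and 73.4, 76.6 and 61.6 CPM in 2w Tg7 libraries. At 12w it was 214, 157 and 227 CPM in Wt and 37.2, 39.4 and 36.9 CPM in Tg7. The Wt libraries of both ages overlapped, whereas the 12w Tg7 libraries lay below all others. The log2 fold change was −1.33 ± 0.14 at 2w (2.52-fold lower, adjusted p = 7.84e-05) and −2.40 ± 0.15 at 12w (5.26-fold lower, adjusted p = 1.88e-07), and both calls held in every setting and with each library left out. Relative to Ddc in the same library, Maob had 0.769 ± 0.016 counts per Ddc count in 2w Wt, 0.527 ± 0.076 in 2w Tg7, 0.780 ± 0.12 in 12w Wt and 0.192 ± 0.018 in 12w Tg7 (SD, n = 3).

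**Figure D3:**
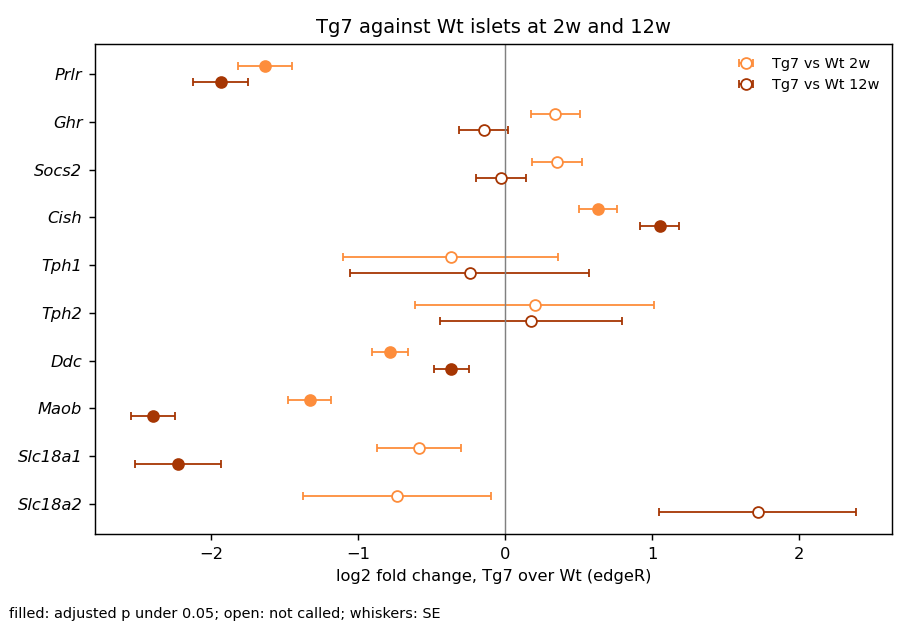
Log2 fold change of Tg7 over Wt islets for each gene at 2w (light) and 12w (dark), with the SE from edgeR. Filled points passed an adjusted p of 0.05. Cish lies right of 0 and Prlr, Ddc and Maob left of 0 at both ages, Slc18a1 is called at 12w (−2.22), and Tph1 and Tph2 have wide errors across 0.

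The effect of the transgene was compared between ages in the same model. Of the 10 genes only Maob passed, where 1.18% of all genes tested did (0.871% with a higher and 0.307% with a lower effect at 12w). Its log2 fold change was 1.06 lower at 12w than at 2w (−1.06 ± 0.20, adjusted p = 0.0215). The call was lost with library size alone (adjusted p = 0.102) and without 2w Wt replicate 2 or 3, 2w Tg7 replicate 2 or any of the 12w Tg7 libraries (adjusted p between 0.0527 and 0.0799). Slc18a1 had a larger but noisier difference (−1.64 ± 0.40, adjusted p = 0.0746). It passed with DESeq2 (adjusted p = 0.00453), without the filter, with a replicate block and without 12w Wt replicate 4 (adjusted p = 0.00771). For the other genes no difference passed (adjusted p between 0.244 for Slc18a2 and 0.995 for Tph2).

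With age, 3 of the 10 genes rose in Wt islets and none fell, where 15.8% of all genes tested were called (7.90% rose and 7.91% fell). In Tg7 islets 3 rose and 1 fell, where 13.0% were called (7.02% rose and 6.01% fell). The ages did not overlap for 6 of the 10 genes in either genotype, beside 31.4% of all genes tested in Wt and 40.7% in Tg7. These comparisons share libraries with those between genotypes. Prlr rose in both, by 1.02 ± 0.18 in Wt (2.03-fold, adjusted p = 0.00196) and by 0.72 ± 0.18 in Tg7 (1.65-fold, adjusted p = 0.0178). The rise in Tg7 was not called without 2w Tg7 replicate 1, 12w Tg7 replicate 1 or 12w Tg7 replicate 3 (adjusted p between 0.0711 and 0.0786). Tph2 rose in both, by 2.78 ± 0.74 in Wt (adjusted p = 0.0204) and by 2.76 ± 0.70 in Tg7 (adjusted p = 0.019). These calls rest on few reads, and were lost without 2w Wt replicate 2 or 3 (adjusted p = 0.0681 and 0.102) or, in Tg7, without replicate 1 or 2 at 2w or 1 or 3 at 12w (0.067 to 0.0836).

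Slc18a1, Maob and Ddc were each called with age in 1 genotype, and Slc18a2 in neither (−1.06 ± 0.68 in Wt, adjusted p = 0.312; 1.40 ± 0.63 in Tg7, adjusted p = 0.167). Slc18a1 rose in Wt islets by 1.98 ± 0.29 (3.95-fold, adjusted p = 0.000482), with the value in Tg7 at 0.34 ± 0.29 (adjusted p = 0.473). Maob fell in Tg7 islets by 0.90 ± 0.15 (1.86-fold lower, adjusted p = 0.00113), with the value in Wt at 0.16 ± 0.14 (adjusted p = 0.456). Ddc rose in Tg7 islets by 0.56 ± 0.12 (1.48-fold, adjusted p = 0.00747), with the value in Wt at 0.14 ± 0.12 (adjusted p = 0.441). The Ddc call was lost with library size alone (adjusted p = 0.0938). The difference between genotypes, which is the test between ages given above, passed for Maob and not for Slc18a1 (adjusted p = 0.0746), Ddc (0.277) or Slc18a2 (0.244). Ghr (0.49 ± 0.17 in Wt, adjusted p = 0.0633), Cish (−0.37 ± 0.13 in Wt, 0.0749) and Socs2 (−0.46 ± 0.17 in Tg7, 0.0887) did not pass, although the groups did not overlap. Each of these 3 passed under 1 or more other settings.

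**Figure D4:**
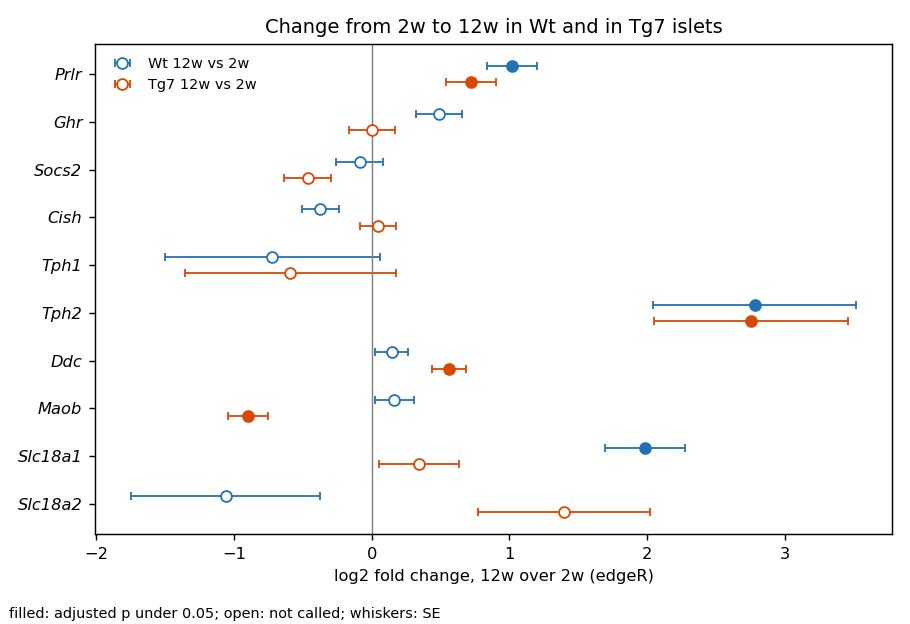
Log2 fold change from 2w to 12w for each gene in Wt (blue) and Tg7 (orange) islets, with the SE from edgeR and filled points for adjusted p under 0.05. Prlr and Tph2 are right of 0 and filled in both genotypes, Slc18a1 is filled in Wt alone, and Ddc and Maob are filled in Tg7 alone, on opposite sides of 0.

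Levels can be set side by side between genes only per length, here as CPM per kb of exon. This length joins all annotated exons of a gene (15494 bases for Prlr and 2789 for Maob), used in islets or not, so the order depends on the annotation. In 12w Wt islets the order was Maob (71.4 ± 13, SD, n = 3), Ddc (58.6 ± 6.6), Prlr (28.6 ± 6.7), Ghr (26.2 ± 6.9), Slc18a1 (20.5 ± 7.2), Socs2 (4.94 ± 1.6), Cish (3.65 ± 0.45), Tph2 (0.538 ± 0.036), Tph1 (0.162 ± 0.089) and Slc18a2 (0.111 ± 0.031). The library ranges overlapped between Maob and Ddc, Prlr and Ghr, Ghr and Slc18a1, Socs2 and Cish, and Tph1 and Slc18a2. In 12w Tg7 islets the order was Ddc (45.5 ± 3.4), Ghr (23.7 ± 0.96), Maob (13.6 ± 0.49), Cish (7.60 ± 0.71), Prlr (7.47 ± 0.88), Socs2 (4.82 ± 0.24), Slc18a1 (4.37 ± 0.60), Tph2 (0.608 ± 0.23), Slc18a2 (0.371 ± 0.095) and Tph1 (0.133 ± 0.14). Here Cish overlapped with Prlr, Socs2 with Slc18a1, and the 3 scarcest genes with their neighbours. Maob passed from the first place to the third and Prlr from the third to the fifth.

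At 2w the same scale gave Maob (63.7 ± 5.0), Ddc (53.1 ± 5.2), Ghr (18.7 ± 0.62) and Prlr (14.1 ± 2.1) as the first in Wt islets, without overlap between neighbours. In 2w Tg7 islets Ddc (30.8 ± 1.1) was first, Maob (25.3 ± 2.8) and Ghr (23.7 ± 3.7) overlapped, and Prlr (4.54 ± 0.62) was sixth behind Cish (7.36 ± 0.81) and Socs2 (6.65 ± 0.48). In each group both hydroxylases and Slc18a2 were the last 3, below 1 CPM per kb on average, while Ddc and Maob, the enzymes after the hydroxylase, were above 13 CPM per kb on average in every group.

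The genes whose log2 CPM ran most like Prlr over the 12 libraries were Sptlc1 (Pearson r = 0.975), Arl8b (0.972), Wars (0.969), Klhl32 (0.969) and G6pc2 (0.967), out of 15960 genes. For Tph1 the closest were Zfp455 (0.831), A530040E14Rik (0.815), Pde8b (0.793), Zfp74 (0.789) and Efcab6 (0.769). The 12 points share the 4 groups, so these values describe the pattern and have no p.

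Of 27 other genes of lactogen signalling, 25 were tested, and 1 rose and 1 fell at 2w, where 10.6% of all genes tested were called. At 12w 2 rose and 5 fell, where 23.6% were called. The median log2 fold change was 0.01 and −0.14. Jak2, the kinase bound to both receptors, was not called (0.11 ± 0.22 at 2w, adjusted p = 0.798; −0.49 ± 0.22 at 12w, adjusted p = 0.128). Stat5b fell at 12w by 0.59 ± 0.17 (adjusted p = 0.0195) and had −0.20 ± 0.16 at 2w (adjusted p = 0.487). Stat5a gave −0.06 ± 0.20 at 2w (adjusted p = 0.875) and −0.58 ± 0.20 at 12w (adjusted p = 0.051). Among further inhibitors, Socs3, which many cytokines induce, rose at 12w by 1.24 ± 0.34 (adjusted p = 0.017), from 13.9 to 55.8 CPM in Wt to 61.7 to 93.9 CPM in Tg7 islets. Its value at 2w was 0.81 ± 0.34 (adjusted p = 0.141). Socs4 fell at 12w by 0.71 ± 0.17 (adjusted p = 0.00832).

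Of the adaptors and phosphatases, Irs1, a docking protein of insulin and lactogen receptors, fell at both ages, by 0.93 ± 0.16 and 0.53 ± 0.17 (adjusted p = 0.00276 and 0.0323). Ptpn11, the phosphatase SHP2, fell at 12w by 0.72 ± 0.20 (adjusted p = 0.0189), and Ptpn1, the phosphatase PTP1B, rose at 12w by 0.39 ± 0.11 (adjusted p = 0.0179). Igf1, a growth hormone target in many tissues, rose at 2w by 1.57 ± 0.46 (adjusted p = 0.0425) from 0.994 to 2.97 CPM on average. Counts over this list moved with the fit. At 12w edgeR on that age alone called 1 of its genes, a replicate block left 3, and it was 2, 3 and 4 without 12w Tg7 replicates 1, 2 and 3.

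Several of these calls were lost in other settings or when 1 library was left out. At 12w, Irs1 lost its call in 6 of 8 other settings, Stat5b, Ptpn11 and Ptpn1 in 3 each, Socs3 in 2 and Socs4 in 1. Without 12w Tg7 replicate 1 the calls of Irs1, Stat5b, Ptpn11 and Socs3 were lost, without replicate 2 those of Stat5b, Ptpn11 and Ptpn1, and without replicate 3 those of Irs1 and Ptpn11. Without 12w Wt replicate 1 those of Irs1 and Ptpn1 were lost, and without replicate 2 or 4 that of Stat5b (adjusted p between 0.0523 and 0.164 for all these losses). The Igf1 call at 2w was lost without each of 8 libraries, namely every 2w Wt and 12w Tg7 library and 2w Tg7 replicates 2 and 3 (adjusted p between 0.0601 and 0.176). Conversely, Socs3 at 2w passed in 2 of 8 settings and without 12w Wt replicate 1 or 2 (adjusted p = 0.0447 and 0.021). Stat5a at 12w passed with DESeq2 on all libraries (adjusted p = 0.0356) and without 2w Wt or 12w Wt replicate 1 (0.0389 and 0.0329), and Jak2 at 12w passed without 12w Wt replicate 2 (0.0419).

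Of 24 genes linked to islets of pregnancy or to lactogens, not all as genes that rise there, 23 were tested. At 2w 1 rose and 5 fell, where 6.07% of all genes tested rose and 4.55% fell. At 12w 4 rose and 4 fell, where 12.5% rose and 11.2% fell. Their median was 0.11 and −0.07. Because the list is mixed, these counts and medians give no direction of a lactogen response. The falls at both ages were those of Slc2a2, the β-cell glucose transporter and also a β-cell marker here (2.32 ± 0.30 and 2.88 ± 0.30, adjusted p = 0.000286 and 1.87e-05), and Ccnd2, a cyclin of β-cell division (0.91 ± 0.17 and 1.49 ± 0.17, adjusted p = 0.00336 and 3.45e-05). Ccnd1, another such cyclin, fell at 2w by 0.53 ± 0.12 (adjusted p = 0.01). Igfals and Ivd fell at 12w, by 1.11 ± 0.17 and 0.55 ± 0.18 (adjusted p = 0.000392 and 0.0364).

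The genes of this list that rose at 12w were Lrrc55 by 3.25 ± 0.88 (adjusted p = 0.0166), Fkbp11 by 1.23 ± 0.19 (adjusted p = 0.000409), Matn2 by 0.86 ± 0.22 (adjusted p = 0.0116) and Cntfr by 0.51 ± 0.17 (adjusted p = 0.0409). Lrrc55 had 3 reads in all 12w Wt and 46 in all 12w Tg7 libraries, a ratio of 10.2 after scaling with an exact 95% interval of 3.29 to 51.4 that covers counting error only. Cntfr, the receptor of ciliary neurotrophic factor, had fallen at 2w by 0.72 ± 0.17 (adjusted p = 0.0154). Ehhadh, an enzyme of peroxisomal fatty acid oxidation, rose at 2w by 0.92 ± 0.24 (adjusted p = 0.0284).

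Of these calls, those of Slc2a2, Ccnd2, Igfals and Fkbp11 held in every setting. All 3 reads of Lrrc55 in 12w Wt islets lay in replicate 2, and without it the fitted value, 6.83, has no Wt read behind it. Without 12w Wt replicate 4 the value of Lrrc55 was 2.57 and its call was lost, as it was without 12w Tg7 replicate 3 and with a replicate block (adjusted p = 0.0544, 0.0617 and 0.104). Cntfr at 12w lost its call in 3 of 8 settings and without 2w Wt replicate 3, 12w Wt replicate 1 or 4, or 12w Tg7 replicate 2 or 3. Ivd lost it in 2 of 8 and without 2w Wt replicate 2 or 3, 12w Wt replicate 2, or 12w Tg7 replicate 1 or 2, and Matn2 without 12w Tg7 replicate 3 (adjusted p between 0.0519 and 0.185 without 1 library). At 2w, Cntfr lost its call without 2w Wt replicate 1 or 2w Tg7 replicate 2 or 3, Ehhadh without 2w Wt replicate 1 or 3 or 2w Tg7 replicate 3, and Ccnd1 without 2w Wt replicate 3 (adjusted p between 0.0576 and 0.131).

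Of 35 other genes of serotonin synthesis, transport, breakdown and reception, 34 were in the table and 18 were tested. At 2w 3 rose and 3 fell, and at 12w 3 rose and 4 fell, where 10.6% and 23.6% of all genes tested were called, with medians of 0.42 and −0.17. Gch1, which makes the tetrahydrobiopterin cofactor of the hydroxylases, fell at both ages (0.88 ± 0.16 and 0.65 ± 0.16, adjusted p = 0.00319 and 0.00869). Of the same cofactor pathway, Spr rose at 2w by 0.66 ± 0.19 (adjusted p = 0.0422) and Qdpr fell at 12w by 0.51 ± 0.14 (adjusted p = 0.0175). Th, the tyrosine hydroxylase that shares this cofactor, fell at 2w by 1.09 ± 0.26 (adjusted p = 0.0183). Slc7a8 and Slc3a2, parts of carriers of large neutral amino acids such as tryptophan, fell by 0.60 ± 0.12 and 0.64 ± 0.12 at 2w and 12w (Slc7a8, adjusted p = 0.00559 and 0.00174) and by 0.96 ± 0.24 at 12w (Slc3a2, adjusted p = 0.0103).

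The Spr call was lost without every 2w Wt or 12w Tg7 library and 2w Tg7 replicate 2 or 3, 8 of 12 in all (adjusted p between 0.0534 and 0.221), and its value was 0.37 without 2w Tg7 replicate 3. The Th call was lost without 2w Wt replicate 1 or 2 or 2w Tg7 replicate 1 or 3 (0.0531 to 0.0691). At 12w the Qdpr call was lost without 12w Tg7 replicate 1 or 2 (0.0626 and 0.0877) and the Gch1 call without replicate 3 (0.0542).

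Slc29a4, a low-affinity plasma membrane monoamine transporter, rose at both ages (0.89 ± 0.14 and 1.17 ± 0.14, adjusted p = 0.00117 and 5.43e-05). So did Tgm2, a transglutaminase that can attach serotonin to proteins (1.34 ± 0.22 and 0.65 ± 0.22, adjusted p = 0.00165 and 0.0483). The Tgm2 call at 12w was lost in 3 of 8 settings and without 9 of the 12 libraries (adjusted p between 0.0543 and 0.173), and held without 2w Tg7 replicate 2 or 3 or 12w Wt replicate 1. Maoa, the other monoamine oxidase and the one with the higher affinity for serotonin, had 14.5 and 14.8 CPM on average in 2w Wt and Tg7 and 24.5 and 19.7 CPM at 12w, and was not called (0.04 ± 0.21, adjusted p = 0.934; −0.33 ± 0.21, adjusted p = 0.288). Without 12w Wt replicate 1 the Maoa value at 12w was −0.57 and passed (adjusted p = 0.0292).

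Of the serotonin receptors, Htr3a, an ion channel subunit, rose at 12w by 2.92 ± 0.81 (adjusted p = 0.0182), from 17 reads in all Wt libraries to 182 in Tg7, and was not called at 2w (−0.05 ± 0.70, adjusted p = 0.973). The value of Htr3a at 12w was 3.83 without 12w Wt replicate 4 and 4.16 with a replicate block. Its call was lost without 12w Wt replicate 2 (2.83, adjusted p = 0.0517) or 12w Tg7 replicate 1 (2.30, adjusted p = 0.0863). Htr2b had 1, 1, 6 and 0 reads in all 3 libraries of 2w Wt, 2w Tg7, 12w Wt and 12w Tg7, and Htr1d had 6 reads in 2w Wt and 0 in the other groups. Both, with the uptake transporter Slc6a4, were too low to be tested. Slc6a4 had 4 reads in 2w Wt, 64 in 2w Tg7, 7 in 12w Wt and 16 in 12w Tg7 libraries. Its level was 0 to 0.147 CPM in 2w Wt and 0.320 to 2.28 CPM in 2w Tg7 libraries, so the 64 reads were spread unevenly. The count called from this list at 2w rose from 6 to 10 with DESeq2 and to 12 without 2w Tg7 replicate 1 or 12w Wt replicate 4.

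**Figure D5:**
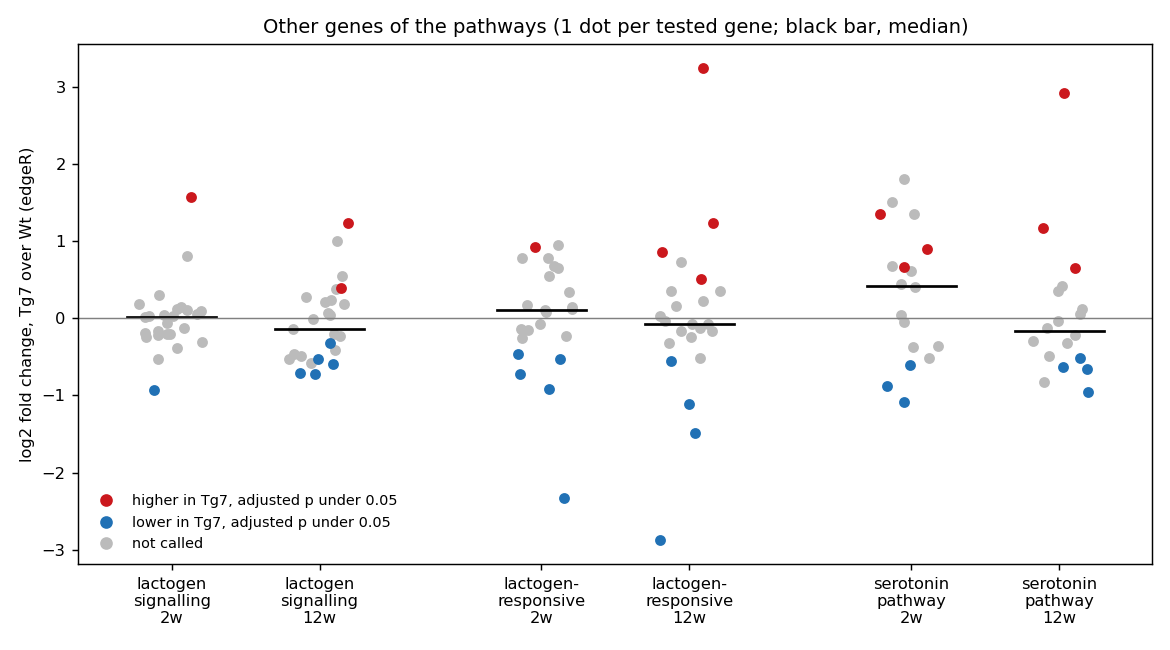
Log2 fold change of Tg7 over Wt islets for each tested gene of the 3 pathway lists (25, 23 and 18 genes) at 2w and 12w, with 1 dot per gene and a black bar at the median. Red dots rose and blue dots fell at an adjusted p under 0.05, and the medians lie between −0.17 and 0.42, with called genes on both sides of 0 in each list.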

How the data were processed

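Bulk RNA-seq was analysed for 12 islet libraries in 4 groups of 3 (Wt and Tg7 at 2w and 12w, the 12w Wt libraries being numbered 1, 2 and 4). The authors made libraries with the NEB Ultra II kit, trimmed paired-end reads with Trimmomatic, aligned them to NCBIM37 (mm9) with TopHat2 2.0.11 and deposited raw counts per Ensembl gene from featureCounts, without normalization. For featureCounts, its version and whether it used strand were not given in the sources used here. Total counts of 11610697 to 17515758 set the precision, so genes with few reads have wide errors. Symbols and exon lengths came from GENCODE vM1 (37205 of 37991 identifiers matched).

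The filter was filterByExpr (at least 10 counts, total of at least 15). Libraries were scaled by TMM and fitted in edgeR 4.0.16 (R 4.3.3) with glmQLFit and glmQLFTest as 4 group means. Adjusted p values are from edgeR's quasi-likelihood test with Benjamini-Hochberg adjustment over the 15961 genes, and the threshold was 0.05. The SE was derived from the log2 fold change and F, and 95% intervals use 8 residual degrees of freedom. CPM used TMM-scaled library sizes. Likeness used log2 CPM with a prior count of 2.

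The 10 genes and the pathway and marker lists were chosen with earlier results of these data known. Named were all 10 genes, up to 4 called genes in each direction per pathway list and age, and Jak2, Stat5a, Stat5b, Socs3, Maoa, Slc6a4, Htr1d, Htr2b and Htr3a. The pathway lists were written by hand from background knowledge. The alternatives were DESeq2 1.42.0 on all libraries or on each age, edgeR on each age, upper-quartile factors or library size alone as scaling, a filter of 1 count in total or of 50 counts in 3 libraries, a replicate block and each library left out. All replicate pairs differed beyond sampling noise (chi-square of at least 7.08 per degree of freedom). Counts were also simulated for 15961 genes from edgeR's own estimates of spread. For each comparison 200 genes had a planted change, and all others had the same mean in every group. Planted 2-fold changes were called by edgeR in 53% of cases at 2w, 62% at 12w and 25% between ages. Planted 4-fold changes were called in 88%, 84% and 76%. Of the edgeR calls on these counts, 5.37%, 7.59% and 3.81% were false. With DESeq2 17.7%, 17.2% and 16.1% were false. The simulated counts followed edgeR's spread and held fewer changed genes than were called between genotypes in the islets. These shares therefore do not give the power or the false calls in the islet data, and how certain calls made by DESeq2 alone are was not tested. No gene of the 10 fell under the filter, so the counting interval planned for such genes was not needed. Figures were drawn with matplotlib 3.10.9.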

Additional observations from a re-analysis of the deposited data

Results flagged for a closer look

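The effect of the Tg7 genotype differed between ages, by the test of the difference itself, for 2 of the genes named, where 1.18% of all genes tested passed. Most list genes among those named were picked because they were called at 2w or 12w, so this count is not set against that share. For Maob the difference was −1.06 on the log2 scale (adjusted p = 0.0215), with a fall at both ages and the larger one at 12w. This call was lost with library size alone and without any 1 of 6 of the 12 libraries. For Cntfr it was 1.22 (adjusted p = 0.023), with a fall at 2w and a rise at 12w. The Cntfr difference was not checked under the other settings, and its call at 12w was lost in 3 of 8 settings and without any 1 of 5 libraries.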

How the results depend on the processing

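Called changes of Prlr, Cish and Maob between Tg7 and Wt islets, of Ddc at 2w and of Slc18a1 at 12w held under all 8 alternatives and without any 1 library. With library size alone the median over all tested genes moved, on the log2 scale, by 0.17 at 2w, 0.44 at 12w, −0.39 with age in Wt, −0.12 with age in Tg7 and 0.27 for the difference between ages, and the share of rises among calls went from 57.2% to 84.0% at 2w and from 52.7% to 93.5% at 12w. The sign then turned for Ghr (0.28), Socs2 (0.45), Tph1 (0.19), Ddc (0.067) and Maoa (0.084) at 12w, Stat5a (0.10) and Htr3a (0.10) at 2w, Ddc (−0.24) and Maob (−0.23) with age in Wt, Cish (−0.070) with age in Tg7 and Tph2 (0.22) between ages. Upper-quartile factors turned Socs2 at 12w (0.052), Htr3a at 2w (0.0084) and Tph2 between ages (0.0089), and dropping the filter turned Ghr with age in Tg7 (0.0056). Of these, Ddc at 12w was called with TMM and Socs2 at 12w with library size alone (adjusted p = 0.0345). Library size alone also ended the calls of Irs1, Stat5b, Ptpn11, Socs4, Ivd, Qdpr, Gch1, Slc3a2 and Slc7a8 at 12w and of Slc7a8, Ccnd1 and Cntfr at 2w.

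Replicate numbers did not pair the libraries (correlations of residuals −0.0214, −0.167 and −0.0343 at 2w and −0.0894 and −0.0112 at 12w). A replicate block turned Ghr (0.035) and Tph2 (−0.21) at 12w, Socs2 (0.041) and Maob (−0.0026) with age in Wt, and Ghr with age in Tg7 (0.0077). It called 2 of the 10 genes between ages, 3 of the signalling list at 12w and 10 of the serotonin list at 2w.

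Of the 10 genes, library size alone called 5 with age in Wt and 0 between ages, and DESeq2 on all libraries or no filter called 2 between ages. On the signalling list at 2w the stricter filter called 1, and DESeq2 and edgeR on each age 5 and 4; at 12w these called 4 and 1. On the serotonin list at 2w DESeq2 called 10 on all libraries and 12 on each age, library size alone 12 and no filter 11.

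With each library left out, calls among the 10 genes ranged from 2 to 5 with age in Tg7 and from 0 to 2 between ages, on the signalling list from 1 to 4 at 2w and 2 to 9 at 12w, on the lactogen-responsive list from 3 to 7 and 5 to 8, and on the serotonin list from 4 to 12 and 4 to 9. Signs of uncalled values turned for Tph2 (−0.33 to 1.42), Jak2 (−0.16 to 0.22), Stat5a (−0.24 to 0.055), Maoa (−0.072 to 0.11) and Htr3a (−1.18 to 0.30) at 2w, Ghr (−0.31 to 0.076), Socs2 (−0.15 to 0.23) and Tph1 (−1.50 to 0.23) at 12w, Socs2 with age in Wt (−0.36 to 0.037), Ghr (−0.080 to 0.14) and Cish (−0.028 to 0.14) with age in Tg7, and Tph1 (−1.13 to 0.60) and Tph2 (−1.24 to 0.53) between ages. The cause of these changes was not tested. Depth limits Tph1, Tph2 and Slc18a2, which had at most 38 counts in any library.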
